A study of Mus musculus with 12 samples.

Results

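Genes that build cholesterol and fatty acids, with genes of their transcriptional control and a cholesterol carrier, were described in cultured neural stem cells of the mouse hippocampus. The set was a list of 32 gene names, matched exactly to the names in the deposited gene table, and all 32 were found among its 34745 genes. They were taken in 3 groups by role: 18 steps from acetyl-CoA to cholesterol, 9 genes of fatty acid synthesis and desaturation, and 5 called regulators. The 5 are Srebf1 and Srebf2, which encode sterol-responsive transcription factors, Scap and Insig1, which control them, and Stard4, a carrier of cholesterol. All 32 passed the filter on low counts, which left 16058 genes for testing.

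The cells came from wild type C57BL/6 mice and were grown in DMEM/F12 medium with B27, penicillin/streptomycin, EGF, bFGF and heparin. There were 4 libraries of polyadenylated RNA at passage 2 (P2). A further 4 were made at passage 10 from cultures given PBS from passage 2 on (P10 PBS), and 4 at passage 10 from cultures given an equal volume of ESC-sEVs over the same passages (P10 EV). These are small extracellular vesicles of embryonic stem cells, and the study's title asks whether they rejuvenate ageing stem cells. The age and number of the mice are not in the labels, which also do not say whether the replicates are separate animals, so p-values measure only the spread between these samples. P10 PBS against P2 follows long culture, P10 EV against P10 PBS the vesicles, and P10 EV against P2 both together; each pair of these comparisons shares 4 libraries.

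Cholesterol is made from acetyl-CoA by way of mevalonate, farnesyl diphosphate, squalene and lanosterol. The transcription factors SREBP1 and SREBP2, products of Srebf1 and Srebf2, are held in the endoplasmic reticulum by Insig1 when sterols are plentiful. When sterols fall, Scap carries them to the Golgi, where they are cut, and the released part turns on genes of both pathways. The brain makes its own cholesterol because lipoproteins of the blood do not cross its barrier, and Fasn activity is known to be needed for neural stem cells of the adult mouse hippocampus to divide.

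Promoters are printed for 4 members that stand for the start of the sterol pathway, its mevalonate step, its feedback regulator and fatty acid synthesis. They are RefSeq sequences of build GRCm38.p6, from 250 bases before to 50 bases after the annotated start. Capitals mark the letters TCACNCCAC, a form of the sterol regulatory element, CACGTG, an E-box that SREBPs also bind, and CCAAT, the box bound by NF-Y, a partner of SREBPs, each on either strand.
Hmgcs1, chr13:119690101-119690400, plus strand: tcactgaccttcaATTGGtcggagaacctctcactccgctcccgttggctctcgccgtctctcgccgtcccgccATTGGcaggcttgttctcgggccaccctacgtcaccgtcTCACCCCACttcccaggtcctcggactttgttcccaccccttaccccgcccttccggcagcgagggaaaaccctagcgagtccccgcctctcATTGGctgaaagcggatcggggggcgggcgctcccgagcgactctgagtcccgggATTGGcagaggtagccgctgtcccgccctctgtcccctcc
Mvk, chr5:114444019-114444318, plus strand: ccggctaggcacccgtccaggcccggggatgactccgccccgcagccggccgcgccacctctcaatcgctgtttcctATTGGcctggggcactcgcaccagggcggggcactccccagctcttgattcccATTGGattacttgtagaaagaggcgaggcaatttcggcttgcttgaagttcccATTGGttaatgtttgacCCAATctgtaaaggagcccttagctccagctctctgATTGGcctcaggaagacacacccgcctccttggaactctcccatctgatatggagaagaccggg
Insig1, chr5:28071162-28071461, plus strand: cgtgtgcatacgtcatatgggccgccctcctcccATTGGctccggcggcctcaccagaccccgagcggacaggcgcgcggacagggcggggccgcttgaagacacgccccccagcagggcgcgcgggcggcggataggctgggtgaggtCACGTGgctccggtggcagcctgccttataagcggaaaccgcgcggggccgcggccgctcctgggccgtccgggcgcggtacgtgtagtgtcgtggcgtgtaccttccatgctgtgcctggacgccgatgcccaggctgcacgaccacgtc
Fasn, chr11:120824498-120824797, minus strand: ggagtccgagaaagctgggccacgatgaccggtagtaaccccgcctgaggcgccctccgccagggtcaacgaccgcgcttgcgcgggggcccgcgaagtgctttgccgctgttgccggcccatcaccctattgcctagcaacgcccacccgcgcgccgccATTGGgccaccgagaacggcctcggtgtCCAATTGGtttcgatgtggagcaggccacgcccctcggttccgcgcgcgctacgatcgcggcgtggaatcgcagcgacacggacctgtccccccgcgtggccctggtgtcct

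CCAAT stood in a window of 20 of the 25 members that have one in the table (80%), against 41.06% of all 27025 genes with a window and 43% of the 10665 tested genes among them. CACGTG stood in 5 of 25 (20%), which were Dhcr7, Hsd17b7, Insig1, Sc5d and Scap, against 8.093% of all genes and 11.41% of tested genes. TCACNCCAC was found in the window of Hmgcs1 alone, 4% of members against 1.436% of all genes. The shorter CACNCCA, which lies within TCACNCCAC, was in 5 of 25 (20%) against 20.56%. The Mvk window held 5 CCAAT boxes, Hmgcs1 and Nsdhl 4 each, and Fasn, Hsd17b7 and Msmo1 3 each. These are matches of letters only, and no binding was measured here. Fads1, Fdps, Fdft1, Sqle, Scd1, Scd2 and Stard4 were not among the windows used.

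Total counts ran from 10736538 to 16807647 per library. Markers of neural stem cells were expressed in all libraries (12 of 12 listed genes tested, summed CPM 3720 to 4915, where CPM is a count divided by its library's total after TMM scaling). Microglial and fibroblast markers were near 0 (summed CPM 1.1 to 2.43 and 0.642 to 5.77, with Tyrobp and Lum at 0 in every library). Transcripts of liver, 9 of 10 listed genes found in the table, reached a summed CPM of 43.1 to 52.3 in 4 libraries, P2 replicates 1 and 2, P10 PBS replicate 1 and P10 EV replicate 1, and lay between 0.367 and 1.68 in the other 8. Replicates 1 and 2 of each group held 28794 to 49377 Xist counts and replicates 3 and 4 held 5 to 15, so the replicate numbers also divide female from male cultures. P2 was the most uneven group: markers of S phase, 25 listed genes, summed to 3563 and 2089 CPM in P2 replicates 1 and 2 but to 749.9 and 1008 in replicates 3 and 4, against 2757 to 3494 at passage 10. Results are therefore also given without the 4 libraries with liver transcripts and within each pair of replicates.

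Measured per length, as FPKM (counts scaled by gene length and library total), Scd2 was the most abundant member. This stearoyl-CoA desaturase, the main form in mouse brain, averaged 1213.3 FPKM over the 12 libraries and alone held between 0.494% and 0.904% of all counts. Fads2 and Fads1, the desaturases of polyunsaturated fatty acids, averaged 335 and 186 FPKM, and Scd1, the related desaturase, 193 FPKM. Fasn, fatty acid synthase, averaged 151 FPKM. Among sterol steps the cytosolic HMG-CoA synthase Hmgcs1 stood far above the others at 315 FPKM, followed by the lanosterol demethylase Cyp51 at 65.1 and squalene synthase Fdft1 at 43.1. The lowest were Tm7sf2, a sterol reductase, at 3.54 FPKM, and Ebp, a sterol isomerase, at 5.32. Of the regulators, Srebf2 averaged 113 FPKM, Insig1 92.1, Srebf1 45.7, Scap 21.4 and Stard4, a cytosolic carrier of cholesterol, 17.2. Reads of close copies can be split by counting, so levels of Acat2, Scd1, Scd2, Idi1, Fdps and Cyp51, which have near-identical relatives or pseudogenes, are uncertain to that extent. All 32 members together made up 1.174% to 2.147% of the counts of a library. In such bulk RNA, fewer cells of a kind and less RNA per cell cannot be told apart.

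**Figure D1:**
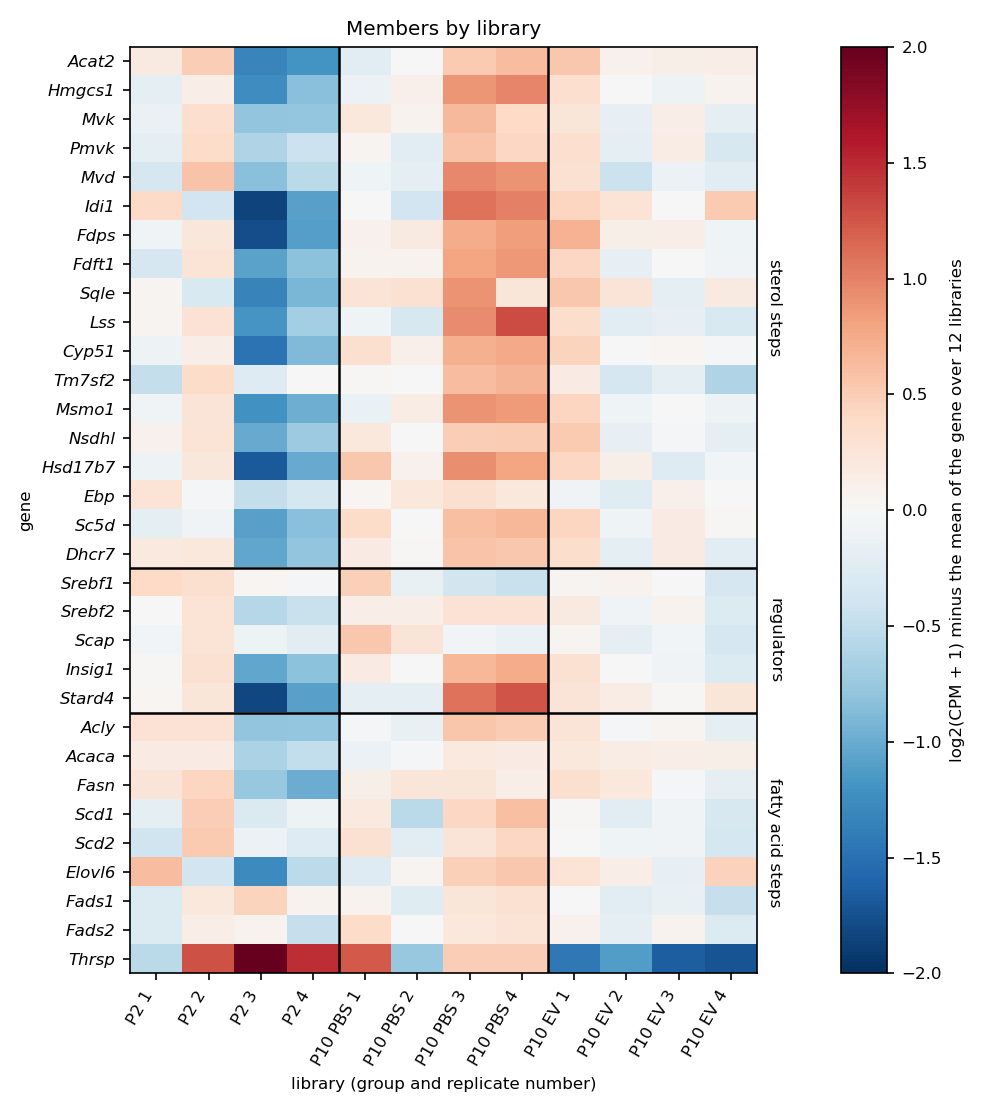
Level of each of the 32 members in each of the 12 libraries, as log2 CPM minus the mean of that gene over all libraries, with genes in rows by role and libraries in columns by group. P2 replicates 3 and 4 are low and P10 PBS replicates 3 and 4 high across most sterol steps, while Thrsp is low in all 4 P10 EV libraries.

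The sterol steps had higher mean levels at passage 10 with PBS than at passage 2, but no member passed the test. All 18 had a log2 fold change above 0, with a median of 0.89 (0.33 for Ebp to 1.10 for Hsd17b7), beside a median of -0.01 over all genes, of which 48.8% were above 0. Fold changes of 0.5 or more were reached by 15 of 18, against 8.12% of all genes. In edgeR's quasi-likelihood test with Benjamini-Hochberg adjustment 0 of 18 were called at an adjusted p under 0.05, where 0.928% of all genes were called in either direction. At an unadjusted p under 0.05, 12 of 18 were higher, against 5.97% of all genes. The Wald test of DESeq2 called 2 of 18 higher, Sqle and Sc5d, against 1.44% of all genes.

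Hmgcs1 (ENSMUSG00000093930, deposited at chr13:119690462-119708086), which makes HMG-CoA, stood at 828, 1028, 396 and 529 CPM in P2 replicates 1 to 4. Its P10 PBS libraries held 867, 1007, 1728 and 1844 CPM. P2 replicates 3 and 4 were the lowest libraries and P10 PBS replicates 3 and 4 the highest, while replicates 1 and 2 of both groups overlapped. Its log2 fold change was 0.97 ± 0.30 (SE, edgeR adjusted p = 0.176).

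Sqle (ENSMUSG00000022351, chr15:59315077-59331192), squalene epoxidase and a rate-limiting step of the pathway, stood at 214, 166, 81.1 and 109 CPM in P2. It held 249, 255, 385 and 244 CPM in P10 PBS. All 4 P10 PBS libraries lay above all 4 of P2, as they did for 2 of the 18 sterol steps and for 2.58% of all genes. The log2 fold change was 0.99 ± 0.27 (edgeR adjusted p = 0.124, DESeq2 adjusted p = 0.0235).

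The other was Sc5d (ENSMUSG00000032018, chr9:42254177-42264300), a sterol desaturase late in the pathway. It measured 56.8, 62.4, 30.0 and 36.3 CPM in P2 and 84.5, 65.6, 99.6 and 104 CPM in P10 PBS, so the groups came closest in replicate 2. Its log2 fold change of 0.93 ± 0.23 had the smallest adjusted p of the 32 members (edgeR adjusted p = 0.086, DESeq2 adjusted p = 0.00938).

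Idi1, the isomerase that makes the units joined by Fdps, measured 106, 62.2, 21.7 and 37.8 CPM in P2 and 81.9, 62.1, 173 and 165 CPM in P10 PBS. Replicates 1 and 2 were no higher at passage 10, and P2 replicate 3 was the lowest of all 12 libraries. The log2 fold change was 1.08 ± 0.43 (edgeR adjusted p = 0.295). Lss, which closes squalene epoxide into lanosterol, showed the same order: 140, 165, 59.4 and 84.0 CPM in P2 against 127, 109, 260 and 337 CPM in P10 PBS. Its log2 fold change was 0.89 ± 0.38 (edgeR adjusted p = 0.324).

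The remaining steps differed in size. Hsd17b7, a ketosteroid reductase, Fdps, farnesyl diphosphate synthase, Cyp51 and Fdft1 had log2 fold changes of 1.10, 0.98, 0.95 and 0.90 between P10 PBS and P2. Msmo1, which oxidises sterol methyl groups, had 0.89, and the mevalonate steps Mvd, a decarboxylase, and Mvk, a kinase, 0.68 and 0.62. Dhcr7, a reductase of the final steps, Nsdhl, a sterol dehydrogenase, and Acat2, the thiolase that opens the pathway, had 0.59, 0.57 and 0.52. Tm7sf2, the kinase Pmvk and Ebp were lowest at 0.43, 0.42 and 0.33. None of these 13 was called, with edgeR adjusted p-values from 0.174 to 0.541.

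**Figure D2:**
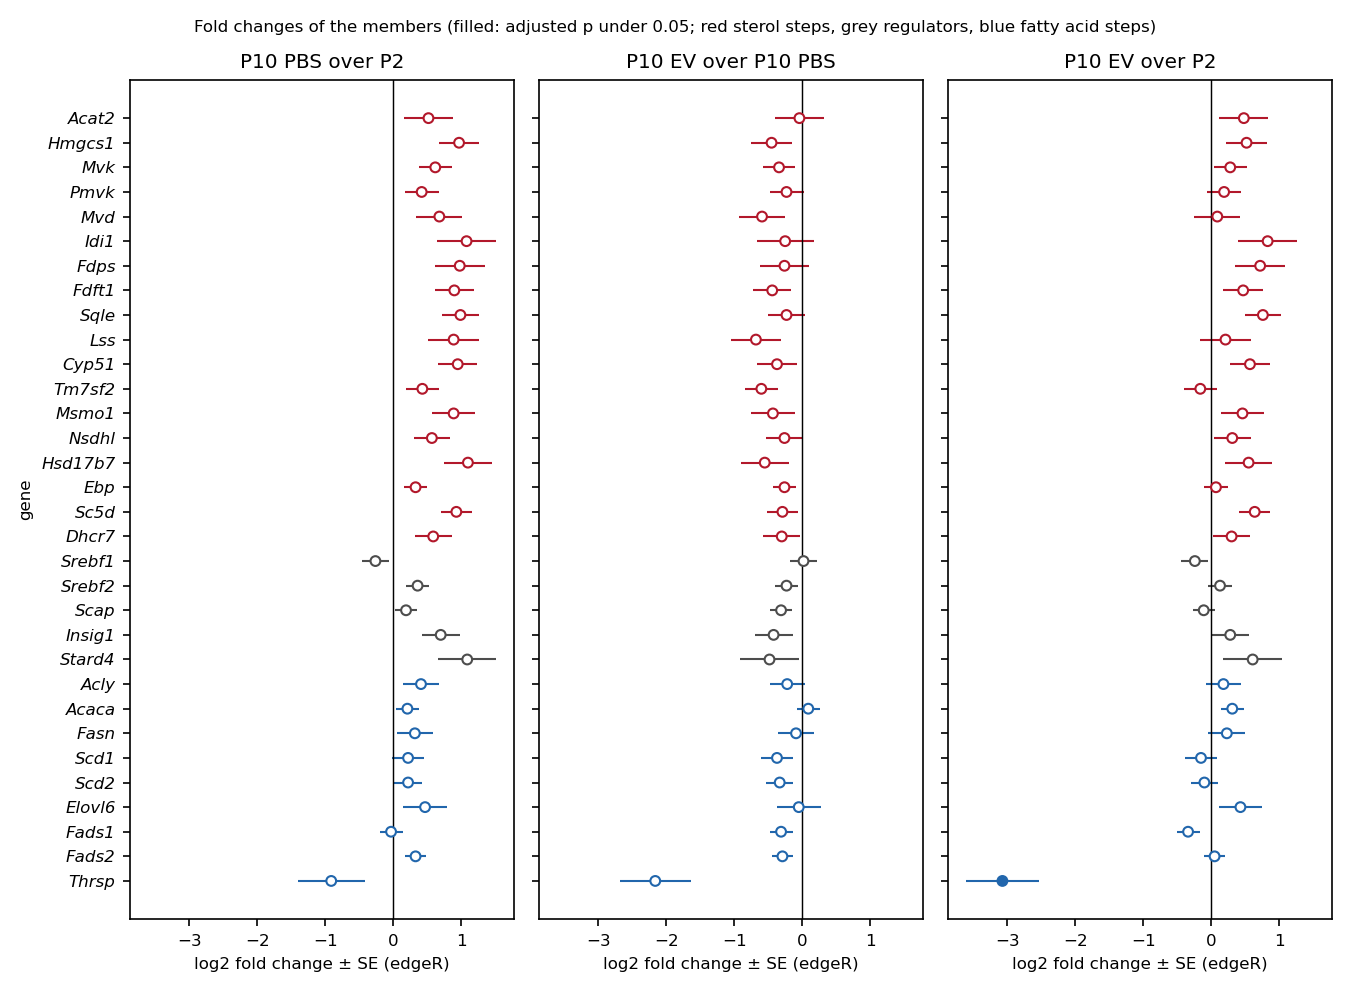
Log2 fold change of each member with its SE in the 3 comparisons, from edgeR on all 12 libraries; filled points have an adjusted p under 0.05. All 18 sterol steps lie right of 0 for P10 PBS over P2 and left of 0 for P10 EV over P10 PBS, and Thrsp in P10 EV over P2 is the only filled point.

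The higher means came from replicates 3 and 4. Taken within a replicate number, the median log2 difference of the 18 sterol steps between P10 PBS and P2 was 0.19 in replicate 1, -0.17 in replicate 2, 1.86 in replicate 3 and 1.58 in replicate 4. The number of steps above 0 was 12, 3, 18 and 18, while between 49.2% and 50.9% of all genes were above 0. P2 replicate 3 was the lowest of the 12 libraries for 17 of 18 sterol steps. P2 replicates 3 and 4 were the lowest pair for 17 of 18, against 12.31% of all genes, and P10 PBS replicates 3 and 4 the highest pair for 14 of 18, against 2.479%.

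Fits within each pair of replicates, chosen after seeing the data, gave different counts. Within replicates 3 and 4, all 18 sterol steps were called higher in P10 PBS than in P2, with a median log2 fold change of 1.76 (0.71 for Ebp to 2.50 for Idi1), against 6.66% of all genes called higher. Hmgcs1 then had a log2 fold change of 1.95 ± 0.19 (edgeR adjusted p = 0.00382). Within replicates 1 and 2, 0 of 18 were called, as were 0% of all genes, and the log2 fold changes ran from -0.44 to 0.41, with 9 of 18 above 0. The difference between the pairs was not tested. In the same libraries the summed S phase markers were lowest in P2 replicates 3 and 4 (749.9 and 1008 CPM). P2 replicate 2, at 2089 CPM, also lay below the passage 10 libraries (2757.5 to 3494 CPM). In P10 PBS over P2, 24 of the 25 S phase markers were above 0, where 48.8% of all genes were. Their median log2 fold change was 0.71, and 22 reached 0.5 or more, against 8.12% of all genes. In edgeR 0 of 25 were called, against 0.928% of all genes. Within a replicate number their mean log2 difference between P10 PBS and P2 was -0.15, 0.43, 2.13 and 1.58 in replicates 1 to 4. For the sterol steps it was 0.15, -0.18, 1.88 and 1.49. The summed astrocyte markers, 9 of 9 genes tested, were 7055 and 4686 CPM in P2 replicates 3 and 4 against 2120 and 3973 CPM in P2 replicates 1 and 2. Markers of the oligodendrocyte lineage, 12 of 16 genes tested, summed to 2374 to 3796 CPM in P2. The sums were 2461 to 3248 CPM in P10 PBS and 2669 to 3068 CPM in P10 EV. Their median log2 fold change in P10 PBS over P2 was -0.99, with 10 of 12 below 0, where 48.8% of all genes were above 0. At an unadjusted p under 0.05, 6 of 12 were lower, against 7.65% of all genes. In edgeR 1 of 12, Sox10, was called lower (log2 fold change -4.39, edgeR adjusted p = 0.0243), against 0.548% of all genes. The part of these markers in the result was not tested.

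**Figure D3:**
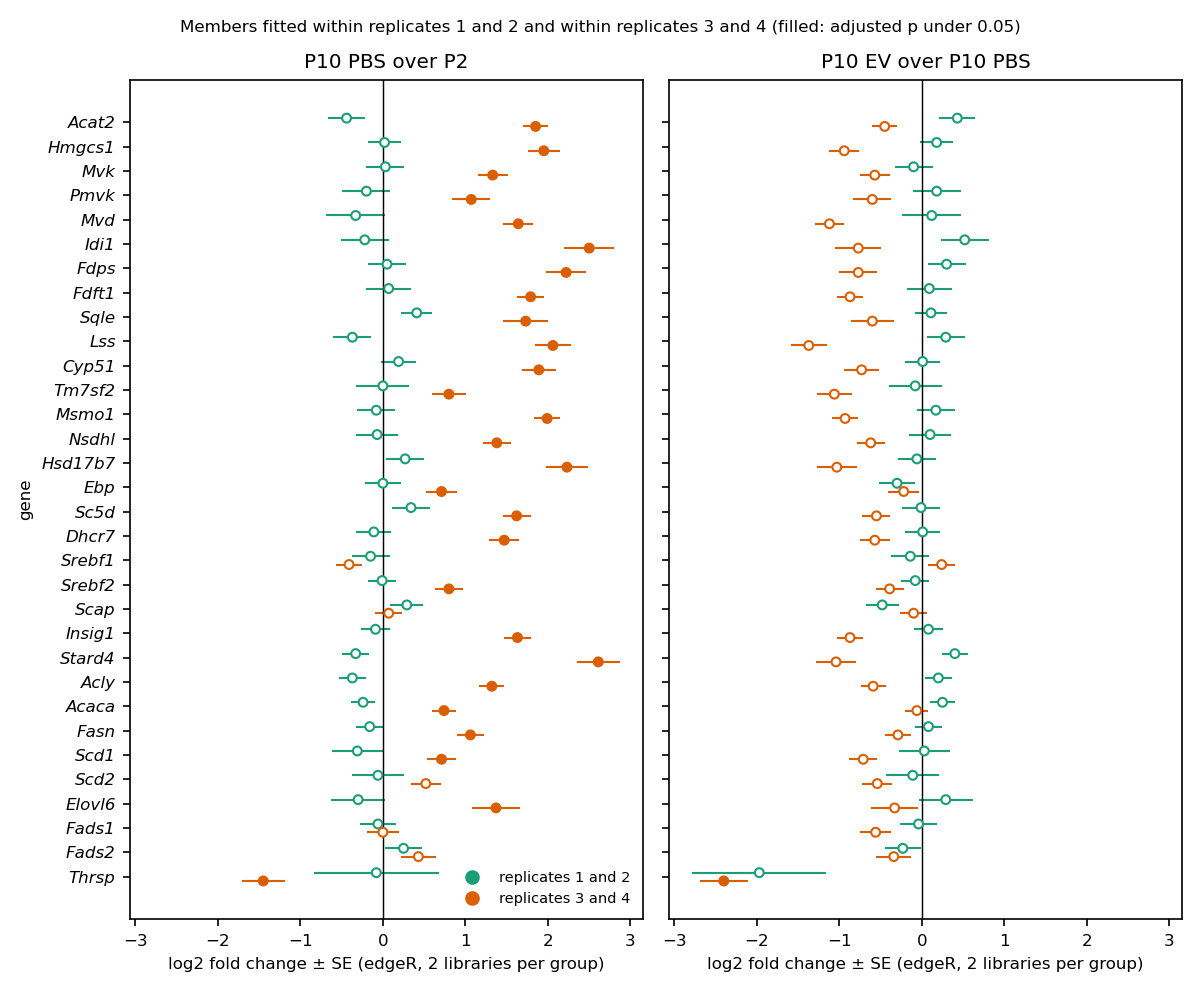
Log2 fold change of each member with its SE, fitted in edgeR within replicates 1 and 2 (green) and within replicates 3 and 4 (orange), 2 libraries per group; filled points have an adjusted p under 0.05. For P10 PBS over P2 all 18 sterol steps are filled and above 0 in replicates 3 and 4, and scatter between -0.44 and 0.41 in replicates 1 and 2.

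Omitting the 4 libraries with liver transcripts, which leaves P2 replicates 3 and 4 as the whole of that group, called 16 of 18 sterol steps higher in P10 PBS than in P2, all but Pmvk and Tm7sf2. The median log2 fold change was then 1.60, and 7.73% of all genes were called higher. Omitting P2 replicate 1 alone called Sqle, Idi1 and Sc5d, with 3.66% of all genes called higher. Without P2 replicate 3 or without P2 replicate 4, 0 of 18 were called and the median fell to 0.69 and 0.76.

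In cultures given vesicles, sterol steps lay slightly below those given PBS, and 0 were called. All 18 log2 fold changes of P10 EV over P10 PBS were below 0, with a median of -0.32 (-0.68 for Lss to -0.04 for Acat2), beside a median of 0.01 over all genes, of which 51.5% were above 0. In edgeR 0 of 18 were called, as were 0% of all genes. At an unadjusted p under 0.05, 1 of 18 was lower, Tm7sf2 (-0.60 ± 0.24, edgeR adjusted p = 0.645), against 4.39% of all genes, and DESeq2 called 0 of 18. In no sterol step did the 4 P10 EV libraries lie wholly below the 4 of P10 PBS, which 3.84% of all genes did.

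Hmgcs1 measured 1189, 943, 878 and 986 CPM in the P10 EV libraries, all inside the range of its P10 PBS libraries. Lss measured 172, 117, 120.5 and 109.7 CPM, near the low P10 PBS replicates 1 and 2 and below the high replicates 3 and 4. Within a replicate number the median log2 difference of the sterol steps between P10 EV and P10 PBS was 0.31 in replicate 1, -0.10 in replicate 2, -0.73 in replicate 3 and -0.78 in replicate 4. The number of steps above 0 was 16, 5, 0 and 0. Within replicates 1 and 2 the fitted median was 0.11, with 13 of 18 above 0 and 0 called. Within replicates 3 and 4 it was -0.75, but 0 of 18 were called (smallest edgeR adjusted p = 0.0702), where 0.0869% of all genes were called lower. With the replicate number as a block, edgeR also called 0 members between these groups.

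Compared with P2, most sterol steps had higher mean levels in P10 EV. Of 18 steps, 17 had a log2 fold change above 0, with a median of 0.46 (-0.16 for Tm7sf2 to 0.83 for Idi1), and 0 were called, where 0.585% of all genes were called in either direction. Sqle (0.76 ± 0.27) and Sc5d (0.64 ± 0.23) had an unadjusted p under 0.05, against 8.28% of all genes higher, and both had an edgeR adjusted p of 0.171. DESeq2 called 0 of 18, where it called 1.91% of all genes higher. Within replicates 3 and 4, 13 of 18 were called higher, against 7.67% of all genes, and the same number without the libraries with liver transcripts, against 10.5%. Those not called in either were Pmvk, Mvd, Lss, Tm7sf2 and Ebp. Within replicates 1 and 2, 0 were called. Without P2 replicate 1, Sqle and Idi1 were called higher, against 8.62% of all genes. The median of 0.46 became 0.24 without P2 replicate 3, with 14 of 18 above 0, 0.27 without P2 replicate 4, with 15 of 18 above 0, and 0.75 without P2 replicate 2.

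**Figure D4:**
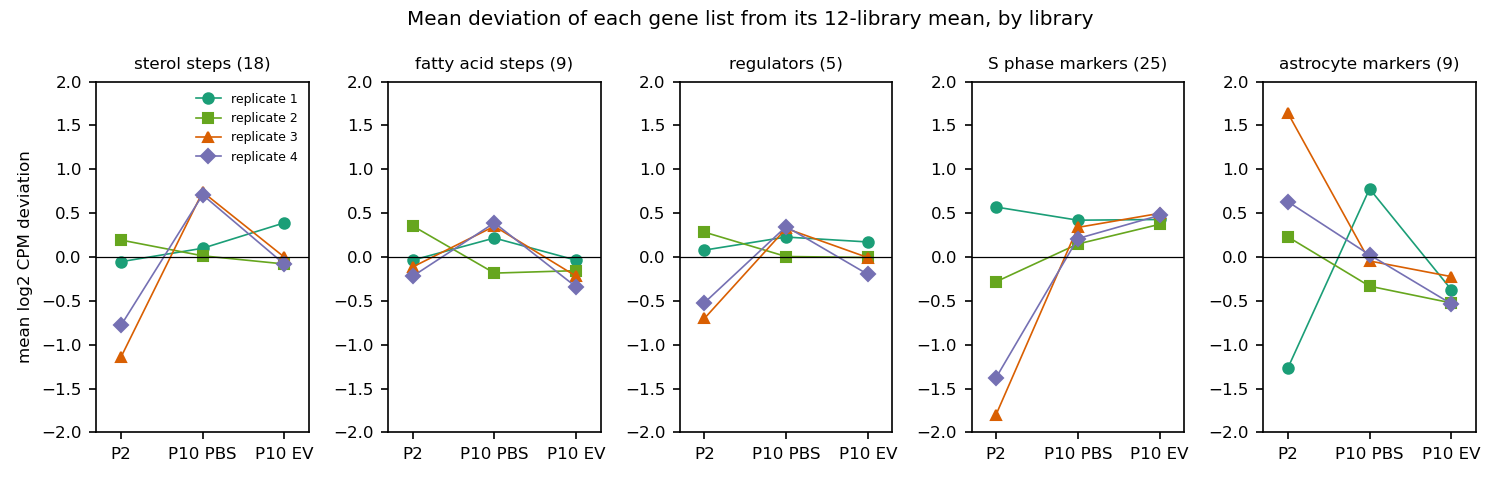
Mean centred log2 CPM of the sterol steps, the fatty acid genes, the regulators and marker lists in each library, with replicate numbers marked. Sterol steps range from -1.143 in P2 replicate 3 to 0.741 in P10 PBS replicate 3, and the P10 EV libraries lie between -0.082 and 0.389.

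The 3 groups also differed in evenness. The median coefficient of variation of sterol steps over the 4 libraries was 43.2% in P2, 25.8% in P10 PBS and 19.5% in P10 EV, beside 26.1%, 17.9% and 15.2% over all genes. P10 EV had the smallest variation of the 3 groups in 26 of the 32 members (81.25%) and in 50.06% of all genes. Stard4 was an example, with 104, 120.5, 28.2 and 47.3 CPM in P2, 89.4, 88.5, 217 and 244 CPM in P10 PBS, and 122, 114, 104 and 120.3 CPM in P10 EV. Its highest library held 8.67 times the level of its lowest, and the P10 EV libraries lay between the extremes of the other groups. All 32 members share the same 4 libraries per group, and the difference in evenness was not tested. For sterol steps, the SD of the mean centred log2 CPM was 0.622, 0.388 and 0.225 in P2, P10 PBS and P10 EV. It was 1.071, 0.122 and 0.055 for S phase markers and 1.206, 0.474 and 0.147 for astrocyte markers. Neural stem cell markers (0.235, 0.050 and 0.122) and oligodendrocyte lineage markers (0.917, 0.144 and 0.163) had it smallest in P10 PBS.

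The regulators differed in the size and sign of their fold changes between P10 PBS and P2. None of the 5 was called there by edgeR or DESeq2. At an unadjusted p under 0.05, 2 of 5, Stard4 and Insig1, were higher, against 5.97% of all genes. Stard4 had a log2 fold change of 1.09 ± 0.43 (edgeR adjusted p = 0.295). Insig1 (ENSMUSG00000045294, chr5:28071363-28078662), itself a target of SREBPs, measured 305, 373, 147 and 171 CPM in P2 and 337, 299, 476 and 506 CPM in P10 PBS. P2 replicates 3 and 4 were again lowest and P10 PBS replicates 3 and 4 highest, and the groups overlapped in replicates 1 and 2. The log2 fold change was 0.70 ± 0.28 (edgeR adjusted p = 0.297). Its P10 EV libraries held 372, 304, 288 and 249 CPM, with a log2 fold change over P10 PBS of -0.42 ± 0.28 (edgeR adjusted p = 0.794).

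Srebf2 (ENSMUSG00000022463, chr15:82147266-82205376), whose product mainly drives sterol genes, had a smaller fold change. It measured 551, 669.5, 375 and 409 CPM in P2 against 606, 606, 680 and 681 CPM in P10 PBS, where P2 replicate 2 lay among the P10 PBS libraries. The log2 fold change was 0.36 ± 0.17 (edgeR adjusted p = 0.386). Srebf1 (ENSMUSG00000020538, chr11:60199089-60222581), whose product mainly drives fatty acid genes, was the only regulator with a lower mean in P10 PBS. It measured 545, 514.5, 424 and 404 CPM in P2 and 579, 372, 320.4 and 303 CPM in P10 PBS, with replicate 1 as the highest P10 PBS library. Its log2 fold change was -0.26 ± 0.20 (edgeR adjusted p = 0.578). Scap, the escort of SREBPs, had 0.19 ± 0.16 (edgeR adjusted p = 0.631).

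The 5 regulators had log2 fold changes between P10 EV and P10 PBS from -0.48 for Stard4 to 0.02 for Srebf1, and between P10 EV and P2 from -0.24 for Srebf1 to 0.61 for Stard4, with 0 called in either by edgeR or DESeq2. In replicates 3 and 4, Stard4 (2.61 ± 0.26), Insig1 (1.63 ± 0.16) and Srebf2 (0.80) were called higher in P10 PBS than in P2, against 6.66% of all genes, and Stard4 and Insig1 higher in P10 EV than in P2, against 7.67%. In replicates 1 and 2, 0 of 5 were called in either. Srebf1 and Scap were called in none of the fits run. The same 3 and 2 genes were called without the libraries with liver transcripts, against 7.73% and 10.5% of all genes called higher.

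**Figure D5:**
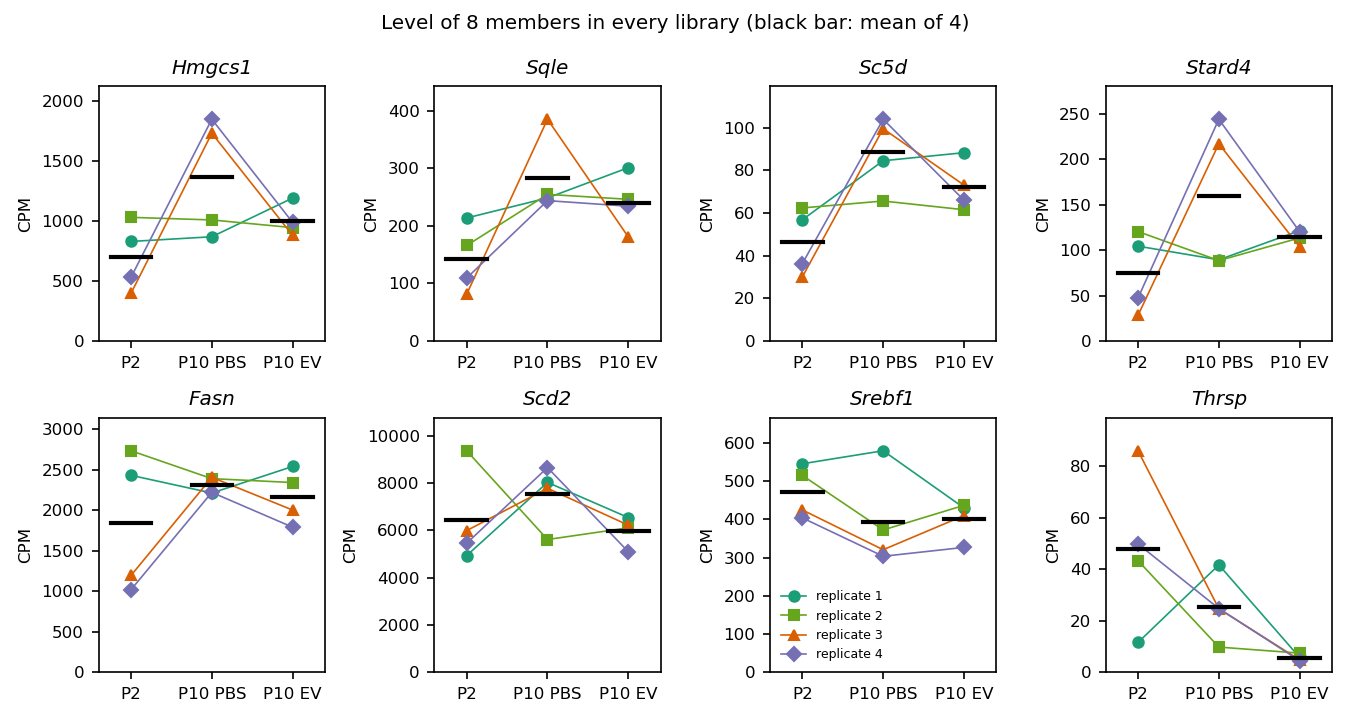
CPM of 8 members in every library, with lines joining libraries of the same replicate number and black bars for the mean of 4. Hmgcs1, Sqle, Sc5d and Stard4 are higher in P10 PBS than in P2 in replicates 3 and 4, and Scd2 shows no common direction. Srebf1 is lower in P10 EV than in P2 in all 4 replicate numbers, but in P10 PBS it is higher than in P2 in replicate 1. Thrsp lies at 4.53 to 7.47 CPM in the P10 EV libraries.

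Fatty acid genes had smaller fold changes than sterol steps between P10 PBS and P2. Of 9, 7 had a log2 fold change above 0, with a median of 0.22 (-0.91 for Thrsp to 0.47 for Elovl6), which became 0.43 without P2 replicate 2 and 0.35 without P10 PBS replicate 2. None was called by edgeR or DESeq2 (which called 2.24% of all genes lower). Fads2 (0.33 ± 0.15, edgeR adjusted p = 0.357) was the 1 of 9 with an unadjusted p under 0.05, against 5.97% of all genes higher. The difference between the fatty acid and the sterol group was not tested.

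Fasn (ENSMUSG00000025153, chr11:120805846-120824547) measured 2431, 2733, 1196 and 1020.0 CPM in P2. Its P10 PBS libraries held 2212, 2390, 2406 and 2220.0 CPM. P2 replicates 1 and 2 lay above every P10 PBS library and replicates 3 and 4 below, and the log2 fold change was 0.32 ± 0.27 (edgeR adjusted p = 0.617). In P10 EV it measured 2540, 2341, 2002 and 1791 CPM, with a log2 fold change of -0.09 ± 0.27 over P10 PBS (edgeR adjusted p = 0.96).

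Acly, which makes cytosolic acetyl-CoA from citrate, and Acaca, acetyl-CoA carboxylase, had log2 fold changes of 0.41 and 0.21 between P10 PBS and P2, and Elovl6, an elongase of long-chain fatty acids, 0.47. Acaca was the only fatty acid gene with a fold change above 0 between P10 EV and P10 PBS (0.09 ± 0.17, edgeR adjusted p = 0.933), and its P10 EV libraries lay within 239 to 257 CPM. Within replicates 3 and 4, Acly, Acaca, Fasn, Scd1 and Elovl6 were called higher in P10 PBS than in P2, against 6.66% of all genes, and the same genes but Scd1 higher in P10 EV than in P2, against 7.67%. Within replicates 1 and 2, 0 of 9 were called in either, and 1 of 9 was above 0 in P10 PBS over P2. Without the 4 libraries with liver transcripts, Acly, Acaca, Fasn and Elovl6 were called higher in both, against 7.73% and 10.5% of all genes, and Thrsp lower in both, against 6.58% and 10.1%. Elovl6 was also called higher in both when P2 replicate 1 alone was left out, against 3.66% and 8.62% of all genes.

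The desaturases did not share the order of libraries seen in the sterol steps. Scd2 (ENSMUSG00000025203, chr19:44293676-44306864) measured 4934, 9359, 5987 and 5455 CPM in P2, 8024, 5611, 7776 and 8649 CPM in P10 PBS, and 6538, 6106, 6218 and 5094 CPM in P10 EV. Its highest library was P2 replicate 2 and its lowest P2 replicate 1, so the early group spanned the others. The log2 fold changes were 0.22 ± 0.20 for P10 PBS over P2 (edgeR adjusted p = 0.646) and -0.33 ± 0.20 for P10 EV over P10 PBS (edgeR adjusted p = 0.781). Scd1 had 0.22 and -0.37 in the same comparisons. Fads1 was highest in P2 replicate 3 at 867 CPM, where most sterol steps were lowest, and had a log2 fold change of -0.03 ± 0.17 for P10 PBS over P2 (edgeR adjusted p = 0.958). For P10 EV over P10 PBS, Fads1 and Fads2 had -0.31 and -0.29, also not called.

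Thrsp (ENSMUSG00000035686, chr7:97412938-97417730) had the largest fold changes of the 32 members between P10 EV and either other group. Its product, also called Spot14, is known in mouse hippocampus from slowly dividing neural stem cells, where it limits Fasn-dependent lipogenesis. Thrsp measured 11.6, 43.3, 85.9 and 49.8 CPM in P2, 41.7, 9.82, 24.7 and 24.8 CPM in P10 PBS, and 5.79, 7.47, 4.85 and 4.53 CPM in P10 EV. All 4 P10 EV libraries lay below all 4 of either other group, while P2 and P10 PBS overlapped. Its mean was 17.5 ± 10.9 FPKM in P2, 9.18 ± 4.46 in P10 PBS and 2.17 ± 0.491 in P10 EV (SD, n = 4 each).

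Thrsp fell between P10 EV and P2, with a log2 fold change of -3.07 ± 0.54 (edgeR adjusted p = 0.0312), a level 8.42-fold lower. It was the 1 member of 32 called in that comparison, where 0.411% of all genes were called lower and 4.36% had all 4 libraries below. DESeq2 also called it (adjusted p = 3.08e-07), with 3.85% of all genes called lower. It was called without the libraries with liver transcripts (-3.59 ± 0.42, edgeR adjusted p = 0.00149, 10.1% of all genes lower). It was also called within replicates 3 and 4 (-3.85 ± 0.29, edgeR adjusted p = 0.00205, 7.53% of all genes lower). Both fits have P2 replicates 3 and 4 as the whole of P2, the P2 libraries with the highest Thrsp levels. Within replicates 1 and 2 it was not called (-2.05 ± 0.81, edgeR adjusted p = 0.955). The call was lost with the replicate number as a block (-2.98 ± 0.60, edgeR adjusted p = 0.0785), with limma-voom (adjusted p = 0.0844) and with the 8 libraries of the comparison alone (adjusted p = 0.0548). It was also lost without P2 replicate 3 (adjusted p = 0.0661), P2 replicate 4 (0.0733) or P10 EV replicates 1, 2, 3 or 4 (0.101, 0.083, 0.0902 and 0.115), each left out in turn.

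For P10 EV over P10 PBS the log2 fold change of Thrsp was -2.16 ± 0.52, lower in 4 of 4 replicate numbers, and edgeR did not call it (adjusted p = 0.399). DESeq2 did (adjusted p = 0.00859), where it called 0.230% of all genes lower. So did edgeR within replicates 3 and 4 (-2.40 ± 0.29, adjusted p = 0.0371), against 0.0869% of all genes called lower. Within replicates 1 and 2 it was not called (-1.97 ± 0.81, edgeR adjusted p = 0.999). Between P10 PBS and P2 the log2 fold change was -0.91 ± 0.49 (edgeR adjusted p = 0.435), with replicate 1 higher and replicates 2 to 4 lower at passage 10. It was -0.45 without P2 replicate 3. Within replicates 3 and 4 it was called lower there (-1.45 ± 0.26, edgeR adjusted p = 0.0164), against 5.27% of all genes. Astrocyte markers moved with it in part: in P10 EV, 9 of 9 had a log2 fold change below 0 over P10 PBS and over P2. Of all genes, 51.5% and 48.8% were above 0 in these 2 comparisons. In edgeR 1 of 9, Slc1a2, was called lower over P2 (-1.58 ± 0.32, edgeR adjusted p = 0.0469), against 0.411% of all genes. Of 12 oligodendrocyte lineage markers, 7 were lower over P2 at an unadjusted p under 0.05, against 10.9% of all genes. Among the 12, 1, Cnp, was called lower there (-1.59 ± 0.31, edgeR adjusted p = 0.0433). Over P10 PBS, 6 of the 12 were above 0 and 6 below, with a median log2 fold change of -0.02. The summed level of astrocyte markers ran from 2120 to 7055 CPM in P2, 2983 to 5038 in P10 PBS and 2646 to 3116 in P10 EV. By library, the mean centred log2 CPM of the 9 astrocyte markers was -1.266, 0.229, 1.640 and 0.630 in P2 replicates 1 to 4. It was 0.777, -0.333, -0.046 and 0.024 in P10 PBS, and -0.372, -0.524, -0.224 and -0.534 in P10 EV. Within P2 and within P10 PBS, Thrsp ranked the replicates in the same order as these markers, but not within P10 EV. No astrocyte marker was at 0, and the part of these markers in the fall of Thrsp was not tested.

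In 6 lists of neighbouring lipid genes, edgeR called 0 genes in each of the 3 comparisons, with 0 to 3 per list higher and 0 to 5 lower at an unadjusted p under 0.05. Over all genes, in P10 PBS over P2, P10 EV over P10 PBS and P10 EV over P2, 5.97%, 2.85% and 8.28% were higher. In the same order and at the same p, 7.65%, 4.39% and 10.9% were lower. The larger counts were 5 of 15 fatty acid oxidation genes, lower in both comparisons of P10 EV. Also lower were 4 of 9 genes of LXR signalling and sterol export in P10 EV over P2. Of other fatty acid synthesis genes, 3 of 17 were higher in P10 PBS over P2. DESeq2 called 5 of the listed genes, beside 1.44% of all genes higher and 2.24% lower in P10 PBS over P2 and 3.85% lower in P10 EV over P2: Abcg1, a sterol exporter, lower in P10 PBS than in P2 (adjusted p = 0.00091), Elovl5 higher there (adjusted p = 0.0275), and Nr1h3, the LXR alpha receptor (adjusted p = 0.0403), Acadvl and Ppara lower in P10 EV than in P2. Other genes of SREBP processing (7 tested) had a median log2 fold change of -0.02 between P10 PBS and P2, with Mbtps1, the site-1 protease, at -0.02. The isoprenoid branch (10 tested), which draws on the same farnesyl diphosphate, had 0.09, with Lbr, a sterol reductase of the nuclear envelope, at 0.52 and Nus1, a subunit of dolichol synthesis, at 0.10. Genes of LXR signalling and sterol export (9 tested of 11) had -0.30, with the exporter Abca1 at -0.91 and the cholesterol esterifying enzyme Soat1 at 0.08. These medians compare with 0.89 for the sterol steps and -0.01 for all genes.

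Abca1 ran against the sterol steps in replicates 3 and 4 of P2 and P10 PBS, but not from P2 replicate 1 to replicate 2. It measured 119, 212, 805 and 317 CPM in P2, 324, 293, 83.7 and 72.3 CPM in P10 PBS, and 171, 229.5, 187 and 201 CPM in P10 EV. It was highest in P2 replicate 3 and lowest in P10 PBS replicates 3 and 4, the libraries where most sterol steps were lowest and highest. No difference between groups was called (edgeR adjusted p = 0.493, 0.997 and 0.404 in the 3 comparisons).

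Other fatty acid synthesis genes (17 tested) had median log2 fold changes of 0.13, -0.23 and -0.10 in P10 PBS over P2, P10 EV over P10 PBS and P10 EV over P2. Elovl5, an elongase of polyunsaturated fatty acids, had all 4 P10 PBS libraries above those of P2 (0.41 ± 0.12, edgeR adjusted p = 0.146), and Hacd3, a dehydratase of elongation, had 0.18. Glycerolipid genes (12 tested) had 0.02, -0.17 and -0.21, with Agpat3, an acyltransferase, at 0.06, -0.44 and -0.38 and Lpin1, a phosphatidate phosphatase, at -0.12, -0.15 and -0.26. Genes of fatty acid oxidation (15 tested) had -0.10, -0.28 and -0.32. All 15 were below 0 in both comparisons of P10 EV, where 51.5% and 48.8% of all genes were above 0. In 5 of 15 all 4 P10 EV libraries lay below those of P10 PBS, against 3.84% of all genes. Hadha, the trifunctional protein subunit, had -0.22 in P10 EV over P10 PBS (edgeR adjusted p = 0.821).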

How the data were processed

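RNA sequencing of 12 libraries was deposited by the authors as 1 table holding raw counts per gene and FPKM for each library. HISAT2 2.0.4 and StringTie 1.3.0 are named without a role, per the submitters' processing notes. The genome build and the program that counted reads were not given in the sources used here. Among 34745 identifiers, 34267 are in GENCODE M21 (GRCm38), and 80.79% of these have the same locus there, so coordinates are printed as deposited. Whether reads were counted by strand is not stated, so overlapping genes cannot be told apart. Columns were matched to samples by library name, with 0 columns unmatched. Total counts ran from 10736538 to 16807647.

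Genes were filtered with filterByExpr of edgeR 4.0.16 (R 4.3.3, minimum count 10), scaled by TMM and fitted with glmQLFit and glmQLFTest, 1 mean per group over all 12 libraries (9 residual degrees of freedom). P-values were adjusted by Benjamini-Hochberg over 16058 genes, with calls made below 0.05. Counts were also simulated for all 12 libraries, with the same changes put into both passage 10 groups. For P10 PBS against P2, the test recovered 56.1% of 82 genes changed by 1 log2 unit and 87.2% of 109 changed by 2, among 15797 genes. The simulated libraries were independent and did not carry the differences between replicate pairs seen in the data. Alternatives were DESeq2 1.42.0 (Wald test and size factors), limma 3.58.1 (voom, and limma-trend on log2(FPKM + 1) and log2(FPKM + 0.1)), no filter, 8 libraries, the replicate block, and libraries left out. Fits within replicates 1 and 2 and within 3 and 4 were added after seeing the data and rest on 2 libraries per group. Means of log2 CPM used a prior count of 2. Promoter windows came from RefSeq, GRCm38.p6.

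Members, lists and tests were chosen with earlier results of these data known. All 32 members are named, and beside them the 2 genes of highest CPM in each other lipid list, some of which are not reported here; Slc1a2, Sox10, Cnp and 4 genes that DESeq2 alone called, Abcg1, Nr1h3, Acadvl and Ppara, were named after their values were seen. Replicate numbers were taken to pair P10 EV with P10 PBS: the deviations of same-numbered libraries from their group means correlated at 0.37, 0.148, 0.138 and 0.208. The library of the same number was the best match for replicates 1, 2 and 4 but not for replicate 3. The numbers also divide female from male cultures, and the part of sex in these correlations was not tested. The library names carry a shared culture code, but the labels do not say that a code is 1 animal.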

Additional observations from a re-analysis of the deposited data

Results flagged for a closer look

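In 5 of 96 groups of 4 libraries, a member's level in 1 library lay far from the other 3 (Dixon's test, which flags about 1 group in 20 by chance). Sqle measured 385.4 CPM in P10 PBS replicate 3, against 243.9 to 254.8 CPM in the other P10 PBS libraries. The other 4 were all P10 EV replicate 1, a library with liver transcripts, and all were sterol steps. Acat2 measured 167.9 CPM there against 122.3 to 125.7 in the other P10 EV libraries, and Cyp51 443.6 CPM against 319.8 to 336.6. Msmo1 measured 177.7 CPM against 123.3 to 131.1, and Nsdhl 117.5 CPM against 71.84 to 78.61.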

How the results depend on the processing

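Over 21 alternative settings and 96 pairs of member and comparison, 2016 fold changes were recomputed, not counting the fits within pairs of replicates: 1926 kept direction and call, 53 gained a call, 9 lost one and 28 changed sign. The cause was not tested for any of them.

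Between P10 PBS and P2, the 149 genes called became 592 with the Wald test of DESeq2, 38 with 8 libraries, 2320 without the libraries with liver transcripts, 0 within replicates 1 and 2, 1921 within replicates 3 and 4, and 41 to 1206 when single libraries were left out. Of sterol steps, 0 became 2 with DESeq2, 16 without the liver libraries, 18 within replicates 3 and 4 and 0 to 3 with single libraries left out. Of fatty acid genes, 0 became 5, 6 (replicates 3 and 4) and 0 to 1, and of regulators 0 became 3 without the liver libraries and 3 within replicates 3 and 4.

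Between P10 EV and P10 PBS, 0 genes called became 67 with DESeq2, 2 with 8 libraries, 26 within replicates 3 and 4 and 0 to 1 with single libraries left out. Of fatty acid genes, 0 became 1 with DESeq2 and 1 within replicates 3 and 4.

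Between P10 EV and P2, 94 genes became 924 with DESeq2, 30 with 8 libraries, 3335 without the liver libraries, 0 within replicates 1 and 2, 2448 within replicates 3 and 4, and 8 to 2821 with single libraries left out. Of sterol steps, 0 became 13 without the liver libraries, 13 within replicates 3 and 4 and 0 to 2 with single libraries left out. Of fatty acid genes, 1 became 0 with limma-voom, 8 libraries, the replicate block and replicates 1 and 2, 5 without the liver libraries, 5 within replicates 3 and 4 and 0 to 2 with single libraries left out. Of regulators, 0 became 2 without the liver libraries and 2 within replicates 3 and 4.

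With the replicate block, the genes called numbered 167, 0 and 67 in P10 PBS over P2, P10 EV over P10 PBS and P10 EV over P2. Among members it changed only the call of Thrsp in P10 EV over P2. Same-numbered libraries correlated at -0.0845 to 0.211 between P10 PBS and P2 and at 0.0874 to 0.187 between P10 EV and P2, with at least 1 number below 0.1 in each, so the numbers were not taken to pair these libraries.

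Within replicates 1 and 2, 11 of 32 members were above 0 between P10 PBS and P2, 9 of them sterol steps, against 29 over all libraries. Of the 2016 above, the 28 that changed sign had log2 fold changes between -0.16 and 0.21 over all libraries. Between P10 EV and P10 PBS, limma-trend with either pseudocount gave Acat2 0.04 and Elovl6 0.03, and without the liver libraries Scd1 gave 0.01 and Scd2 0.03 between P10 EV and P2. With single libraries left out, Fads1 ran from -0.14 to 0.10 between P10 PBS and P2. Between P10 EV and P10 PBS, Acat2 ran from -0.19 to 0.10, Elovl6 from -0.19 to 0.08 and Srebf1 from -0.08 to 0.26. Between P10 EV and P2, Ebp ran from -0.05 to 0.24, Fads2 from -0.06 to 0.13, Lss from -0.01 to 0.45, Mvd from -0.08 to 0.47, Scd1 from -0.24 to 0.04, Scd2 from -0.20 to 0.12 and Tm7sf2 from -0.31 to 0.01.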
